A study of Mus musculus with 6 samples.

Results

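The nuclear genes for the subunits of the respiratory chain and of the ATP synthase were taken by name from the 34745 genes in the deposited table. A gene was a member when its symbol began with Nduf followed by a letter of the a, ab, b, c, s or v series and a number, was Sdha, Sdhb, Sdhc or Sdhd, or began with Uqcr, with Cox and a digit from 4 to 8, or with Atp5. Symbols with the pseudogene ending -ps (4 rows) and the muscle isoforms Cox6a2 and Cox8b were left out of 88 matching rows, which left 82 members. The naming rule itself uses no measured value. The members are 36 genes of complex I, 4 of complex II, 8 of complex III, 17 of complex IV and 15 of complex V (the ATP synthase), with Atp5s and Atp5sl kept apart because their products are not subunits of the finished enzyme. Ndufa4, named for complex I, was counted with complex IV, where its product is now placed.

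RNA was measured by paired-end sequencing in 6 tumours grown under the skin of the right flank of C57BL/6J mice after injection of B16F10 cells, a mouse melanoma line. The 3 tumours called ND came from mice on a normal diet, and the 3 called HCD came from mice on a high cholesterol diet. No genotype, age, sex or drug separates the groups in the labels, and whether each tumour came from its own mouse is not stated. The p-values below therefore rest on sample-to-sample spread alone, part of which may be technical. Library totals were 20351637 to 26228074 counts. The labelled cell type did not show in its defining genes. Of 8 pigment cell genes, Tyr, Dct, Mlana and Oca2 had 0 counts in all 6 libraries, and the summed level of the list was 4.20 to 11.1 CPM (counts scaled to the library total), most of it from Mitf, against 6734 to 8900 CPM for 10 hepatocyte genes that include Alb. The tumours are therefore called here by diet and number. A lower level in whole tumour RNA cannot tell fewer cells of a type from less RNA per cell.

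As background, the respiratory chain passes electrons from NADH (complex I) and succinate (complex II) through ubiquinone to complex III, cytochrome c and complex IV, where oxygen is reduced. Complexes I, III and IV pump protons across the inner mitochondrial membrane, and the ATP synthase uses the gradient to make ATP. Most subunits are encoded in the nucleus and imported, while a small core is encoded by mitochondrial DNA, so each complex except complex II is built from 2 genomes. The transcription factors NRF1, GABPA of the ETS family and YY1 are known regulators of many of the nuclear genes.

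Promoters were looked up in the RefSeq promoter table (build GRCm38.p6, 250 bases before to 50 bases after a start site), which held 71 promoters for 66 of the 82 members. Each was searched on both strands for GCGCATGCG (NRF1), CCGGAAG (ETS) and AANATGGC (YY1). GCGCATGCG read on both strands can overlap itself, as it does in Atp5g2, and the last bases of CCGGAAG can overlap the first of AANATGGC. NRF1 letters stood in 8 member promoters (11.3%), against 1.75% of all 32851 promoters in the table. ETS letters stood in 16 (22.5%), against 8.86%, and YY1 letters in 16 (22.5%), against 6.05%. At least 1 of the 3 stood in 34 of 71 (47.9%), against 15.4% of all promoters. A match describes the letters of this window and does not show a site in use.

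The 4 promoters shown first belong to the members with an unadjusted p under 0.05 between the diets, and Atp5g2 and Atp5b are shown for an NRF1 and a YY1 match in 2 abundant ATP synthase genes. Capitals mark the matches, and all are written 5′ to 3′ on the gene's strand. Ndufb10 (chr17:24724374-24724673, minus strand) held 1 YY1 match, Ndufs3 (chr2:90904672-90904971, minus strand) held 2 ETS matches, and Uqcr10 (chr11:4704295-4704594, minus strand) and Ndufa10 (chr1:92473709-92474008, minus strand) held none. Atp5g2 (chr15:102670998-102671297, minus strand) held 2 overlapping NRF1 matches, and Atp5b (chr10:128083057-128083356, plus strand) held 1 YY1 match.
Ndufb10: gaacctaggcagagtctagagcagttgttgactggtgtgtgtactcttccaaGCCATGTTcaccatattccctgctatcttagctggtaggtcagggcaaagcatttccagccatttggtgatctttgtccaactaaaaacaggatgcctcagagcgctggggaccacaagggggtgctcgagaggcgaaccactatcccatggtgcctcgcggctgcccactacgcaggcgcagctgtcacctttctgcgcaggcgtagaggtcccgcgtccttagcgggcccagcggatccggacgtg
Ndufs3: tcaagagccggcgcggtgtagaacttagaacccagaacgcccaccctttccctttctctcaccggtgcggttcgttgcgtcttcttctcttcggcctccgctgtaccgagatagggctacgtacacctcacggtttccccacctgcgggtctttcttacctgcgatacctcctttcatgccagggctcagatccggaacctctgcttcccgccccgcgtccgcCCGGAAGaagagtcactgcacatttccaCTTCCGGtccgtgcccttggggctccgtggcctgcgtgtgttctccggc
Uqcr10: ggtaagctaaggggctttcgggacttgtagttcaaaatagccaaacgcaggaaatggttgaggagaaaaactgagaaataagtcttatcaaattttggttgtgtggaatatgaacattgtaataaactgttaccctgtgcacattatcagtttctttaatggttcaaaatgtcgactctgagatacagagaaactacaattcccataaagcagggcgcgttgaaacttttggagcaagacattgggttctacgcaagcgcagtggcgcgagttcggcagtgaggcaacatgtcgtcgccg
Ndufa10: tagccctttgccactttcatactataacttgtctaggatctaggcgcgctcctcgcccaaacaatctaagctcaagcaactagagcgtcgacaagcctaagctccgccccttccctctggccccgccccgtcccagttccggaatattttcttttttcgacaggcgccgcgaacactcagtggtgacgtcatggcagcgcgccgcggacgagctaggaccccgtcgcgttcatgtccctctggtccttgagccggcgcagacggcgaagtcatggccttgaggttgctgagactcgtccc
Atp5g2: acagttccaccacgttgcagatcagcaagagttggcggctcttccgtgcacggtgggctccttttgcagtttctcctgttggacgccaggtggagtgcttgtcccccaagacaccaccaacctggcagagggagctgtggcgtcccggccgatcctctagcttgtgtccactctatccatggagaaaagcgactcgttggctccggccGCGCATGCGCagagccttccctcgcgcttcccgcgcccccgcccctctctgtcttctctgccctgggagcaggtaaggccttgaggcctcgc
Atp5b: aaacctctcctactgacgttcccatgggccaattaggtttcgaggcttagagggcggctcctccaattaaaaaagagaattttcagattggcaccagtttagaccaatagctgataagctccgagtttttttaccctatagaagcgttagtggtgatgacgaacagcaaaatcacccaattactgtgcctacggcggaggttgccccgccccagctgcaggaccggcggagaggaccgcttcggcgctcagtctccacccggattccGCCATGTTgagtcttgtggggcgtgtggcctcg

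Members with and without a match had much the same difference between diets. Among tested members with a promoter in the table, the 34 with any of the 3 motifs had a median log2 fold change (HCD over ND) of 0.13, and the 29 without had a median of 0.13. The medians were 0.13, 0.12 and 0.12 for the 8, 16 and 16 genes with NRF1, ETS and YY1 letters. These medians were not tested.

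Of the 82 members, 78 passed the filter on low counts, 2 (Cox6b2 and Cox7a1) fell short of it and 2 (Cox7b2 and Cox8c) had no count in any library, and levels differed widely within a complex. Levels of different genes are compared here as CPM per kilobase of the principal transcript in the GENCODE M21 annotation, as means over the 6 libraries. The gene lengths behind the deposited FPKM values (counts scaled by gene length and library total) were a median of 2.25 times that transcript. They were more than 2 times that transcript in 45 of 80 members, so those genes stand lower on the deposited scale. Which transcripts the tumours used was not examined, so neither length is known to be the right one. The median member stood at 34.6 CPM per kb in complex I, 52.7 in complex II, 68.6 in complex III, 81.5 in complex IV and 94.8 in complex V. Over the 13 of 17 complex IV genes that had enough counts to be tested, the median was 112, so the order of complexes IV and V turns on 4 genes with few or no counts. The highest levels per kb were those of the catalytic ATP synthase genes Atp5b (515 ± 40.2, SD, n = 6) and Atp5a1 (377 ± 23.6), which encode the beta and alpha subunits, followed by Cox8a (250 ± 23.2), a small subunit of complex IV, and Atp5g2 (233 ± 15.1), a gene for the proton-carrying c subunit.

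Order changed with the length used. On the deposited FPKM scale Cox8a was higher (252 ± 24.0) than Atp5a1 (176 ± 10.1) and Atp5b (142 ± 11.8), because the length behind the FPKM of Atp5b is 3.61 times its principal transcript, while that of Cox8a is 0.991 times. Within complex I, Ndufb9, an accessory subunit, stood at 85.06 ± 5.79 FPKM and at 78.7 ± 4.70 CPM per kb of principal transcript, since both lengths are close. In complex II, Sdha, the flavoprotein that oxidises succinate, was highest per kb (81.6 ± 4.36) and Sdhc, a membrane anchor, lowest (31.6 ± 1.49). In complex III, Uqcrh, the hinge protein, was highest (122 ± 10.1) and Uqcr11 lowest (25.3 ± 4.37). The lowest subunit gene of complex I was Ndufb2, at 7.68 ± 1.88 CPM per kb.

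The summed level of each complex is a simple view of the diets, but it is weighted towards the most abundant genes. Atp5b and Atp5a1 of complex V alone had mean levels of 986 and 931 CPM over the 6 libraries. All 82 members together took 5966, 6177 and 6047 CPM in ND 1, ND 2 and ND 3, and 6748, 5991 and 6750 CPM in HCD 1, HCD 2 and HCD 3, a ratio of means of 1.07. HCD 1 and HCD 3 lay above every ND tumour, and HCD 2 lay among them. The diets therefore overlap in the sum.

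**Figure D1:**
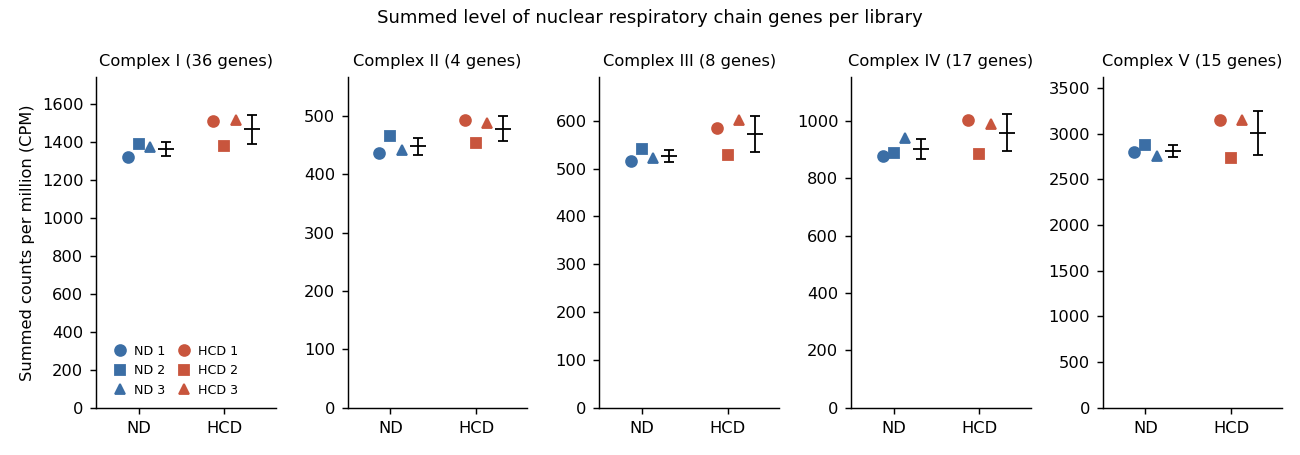
Summed CPM of the members of each complex (vertical axes from 0, panels I to V), with 1 point per tumour, ND in blue and HCD in red, and black bars for the mean and SD of 3 libraries. HCD 1 and HCD 3 stand above the 3 ND tumours in each panel, and HCD 2 stands among them in panels I to IV and just under them in panel V.

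HCD 1 and HCD 3 were also the highest tumours in each complex. Complex I summed to 1321, 1391 and 1375 CPM in the ND tumours and to 1509, 1379 and 1514 CPM in the HCD tumours. Complex II summed to 436, 465 and 442 against 492, 454 and 488 CPM. Complex III summed to 515, 541 and 523 against 585, 529 and 601 CPM. In each of these complexes HCD 2 was within the ND range, and it was also so in complex IV, with 877, 888 and 940 against 1001, 884 and 987 CPM. Complex V, with the largest sum, gave 2804, 2876 and 2750 CPM in the ND tumours. The HCD tumours gave 3144, 2734 and 3146 CPM, with HCD 2 below all 3 ND tumours.

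Gene by gene, 78 of the 82 members had enough counts to be tested, and none passed the threshold of 0.05 after adjustment in edgeR's quasi-likelihood test, as 0.0% of all 15539 tested genes did. The smallest adjusted p of a member was 0.839. At an unadjusted p under 0.05, 4 members were higher in HCD (5.13% of 78) and 0 were lower, against 1.81% of all tested genes higher and 3.48% lower. The fitted difference was positive for 74 of 78 members, against 53.0% of all tested genes, and its median was 0.12 on the log2 scale, a fold of 1.09, against a median of 0.01 for all tested genes. The range ran from -0.15 for Atp5sl to 0.52 for Ndufb2. These 78 values come from the same 6 libraries and are not independent of each other.

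With 3 tumours a diet, the standard error of a member's log2 fold change had a median of 0.09. The 95% interval shut out a change of 1.25-fold or more in either direction for 34 of the 78 members, of 1.5-fold or more for 71 and of 2-fold or more for 76. Among 4455 tested genes with a mean level between the quartiles of the members (23.2 to 85.5 CPM), the median log2 fold change was 0.01, and among 4610 genes of like length it was 0.03.

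**Figure D2:**
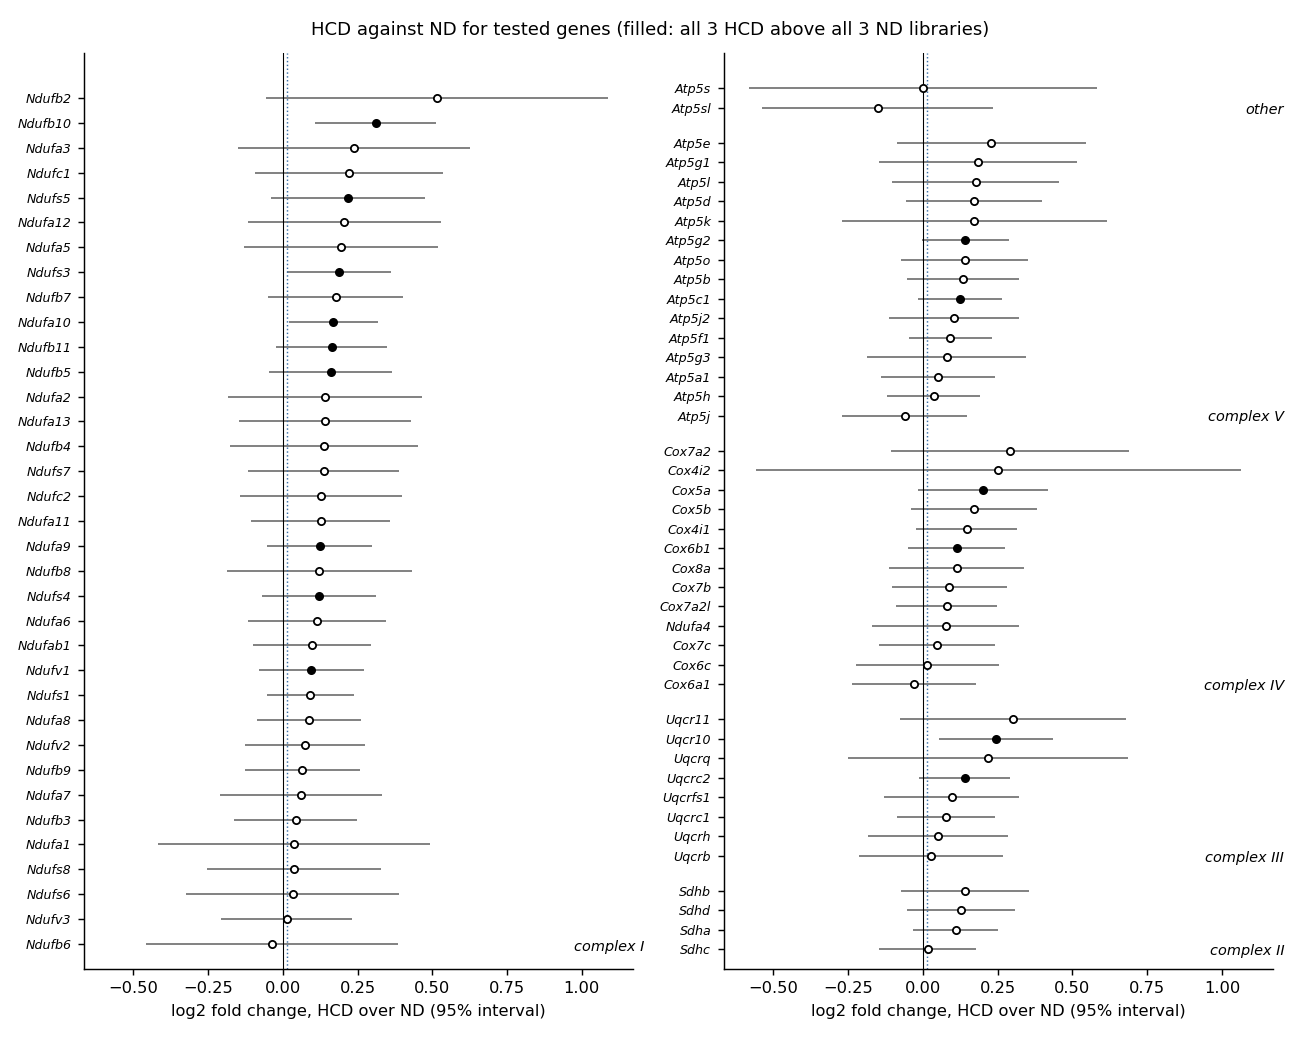
Log2 fold change of the tested members (1 not shown), HCD over ND, with its 95% interval, ordered within each complex. Filled points mark members with all 3 HCD tumours above all 3 ND tumours, the solid line is 0 and the dotted line is the median of all tested genes (0.01). Most points lie to the right of 0, and 4 intervals lie wholly to the right.

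All 3 HCD tumours lay above all 3 ND tumours in 15 of 78 members (19.2%), against 4.75% of all tested genes, and all 3 lay below in 0, against 6.36%. The 15 were 9 genes of complex I (Ndufa9, Ndufa10, Ndufb5, Ndufb10, Ndufb11, Ndufs3, Ndufs4, Ndufs5 and Ndufv1), Uqcr10 and Uqcrc2 of complex III, Cox5a and Cox6b1 of complex IV, and Atp5c1 and Atp5g2 of complex V. Among genes of like level the share was 5.43%, and among genes of like length 4.92%. HCD 2 set the count. It exceeded all 3 ND tumours in 21 members, while HCD 1 did so in 66 and HCD 3 in 56, and without HCD 2 the remaining HCD tumours lay above all ND tumours in 48 members, against 11.9% of all tested genes.

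Complex I, the NADH dehydrogenase, held 36 of the 78 tested members and 3 of the 4 with the smallest p. Ndufb10, an accessory subunit of the membrane arm, stood at 25.3, 28.3 and 28.0 CPM in the ND tumours and at 35.4, 32.5 and 33.2 CPM in the HCD tumours. Every HCD tumour was above every ND tumour, and the log2 fold change was 0.31 ± 0.09 (SE, unadjusted p = 0.00874, adjusted p = 0.839 in edgeR). Ndufs3, a core subunit of the arm that hands electrons to ubiquinone, stood at 41.7, 42.9 and 42.5 CPM in ND against 48.6, 45.4 and 50.7 CPM in HCD, again without overlap, with a log2 fold change of 0.19 ± 0.07. Of the 50-base stretches of its transcript, 35.8% also occur in other genes, so part of its count depends on how shared reads were treated. Ndufa10, an accessory subunit, gave 96.6, 99.1 and 95.4 CPM in ND against 113, 102 and 112 CPM in HCD, a log2 fold change of 0.17 ± 0.06.

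The 7 nuclear core subunits of complex I, which carry the flavin and the iron-sulfur clusters, all had positive differences with a median of 0.09, and the 29 accessory subunits had a median of 0.13 with 28 positive. Ndufv1, which binds NADH and the flavin, gave 54.4, 61.5 and 62.0 CPM in ND and 62.3, 63.9 and 63.7 CPM in HCD, so that the diets were apart only by a narrow gap. Ndufs1, the largest iron-sulfur subunit, overlapped (109, 120 and 113 against 124, 117 and 123 CPM), with a difference of 0.09. The most positive difference of all members was that of Ndufb2, with 2.64, 3.60 and 2.38 CPM in ND against 4.54, 4.26 and 3.56 CPM in HCD, where ND 2 and HCD 3 met. It rested on 49 to 95 counts a library and had the interval -0.06 to 1.09, and its exons overlap those of 3 other genes. Ndufb6 was the only complex I member with a negative difference (-0.04 ± 0.18), with HCD 2 lowest at 8.996 CPM and the other 5 tumours at 11.2 to 13.4 CPM.

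Complex II, the succinate dehydrogenase, is the one complex with no mitochondrially encoded subunit. Its 4 genes all had positive differences, with a median of 0.12, and none was free of overlap between diets. Sdha gave 225, 237 and 220 CPM in ND and 251, 235 and 250 CPM in HCD, a log2 fold change of 0.11 ± 0.06, with HCD 2 just under ND 2. Sdhb, the iron-sulfur subunit, had the largest difference (0.14 ± 0.09) and Sdhc the smallest (0.02 ± 0.07). Sdhd, the other membrane anchor, had the highest deposited FPKM of the complex (60.6 ± 4.61) and a difference of 0.13 ± 0.08.

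Complex III, the cytochrome bc1 complex, had 8 of 8 positive differences with a median of 0.12. Uqcr10, a small membrane subunit, gave 23.6, 22.8 and 23.5 CPM in ND and 28.7, 26.2 and 27.9 CPM in HCD, without overlap, and a log2 fold change of 0.24 ± 0.08 (unadjusted p = 0.0188 in edgeR). Uqcrc2, a core protein of the matrix side, gave 166, 182 and 166 CPM against 186, 183 and 197 CPM, where ND 2 came within 2 CPM of HCD 2. Uqcrfs1, the Rieske iron-sulfur protein, overlapped through HCD 2, which lay inside the ND range (113, 101 and 96.7 against 114, 98.2 and 120 CPM). Uqcr11 had the most positive difference (0.30 ± 0.16), carried mainly by HCD 1 at 14.9 CPM against 9.47 to 11.5 CPM in the other tumours, and Uqcrb the least (0.03 ± 0.10). Uqcrq was lowest in ND 1, at 28.2 CPM against 40.4 to 51.2 CPM elsewhere.

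Complex IV, cytochrome c oxidase, had 13 of 17 genes tested, 12 of them with positive differences and a median of 0.11. Cox5a gave 21.0, 22.6 and 22.5 CPM in ND and 24.7, 27.4 and 23.8 CPM in HCD, with HCD 2 here the highest tumour, and a log2 fold change of 0.20 ± 0.09. Cox6b1, at the face that binds cytochrome c, gave 60.1, 59.8 and 61.7 CPM against 65.1, 61.9 and 69.4 CPM, a gap of less than 1 CPM between ND 3 and HCD 2. Cox8a overlapped (131, 127 and 138 against 156, 124 and 149 CPM), and Cox6a1, the form that liver and most tissues use, had the only negative difference (-0.03 ± 0.09). Ndufa4 overlapped as well (80.0, 80.8 and 79.9 against 92.6, 71.1 and 89.8 CPM), with the 3 ND tumours close together and HCD 2 under all of them.

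Several subunits of complex IV have paralogs that tissues use differently, and in each family here 1 gene held most of the level. Cox4i1 held 97.2% ± 0.87 (SD, n = 6) of the Cox4i level per kb, and Cox4i2, the form known from lung and low oxygen, stood at 1.70, 3.10 and 1.85 CPM in ND and 2.17, 3.53 and 2.24 CPM in HCD, with no order by diet. Cox6b1 held 99.6% ± 0.12 of its family, and the testis form Cox6b2 had 2 to 5 counts a library. The Cox7a family was grouped by symbol, and Cox7a2l is not a tissue form of Cox7a2. Cox7a2l held 86.3% ± 2.47 of the level per kb. Cox7a2, the form of most tissues, held 12.6% ± 1.95, and Cox7a1, the heart and muscle form, held 1.10% ± 0.78. These are shares of RNA and do not show which form complex IV carries. Cox7a2 had the most positive difference of the complex (0.29 ± 0.17), at 10.6, 12.04 and 8.45 CPM in ND against 12.7, 14.0 and 11.3 CPM in HCD, where ND 2 lay above HCD 3. The testis forms Cox7b2 and Cox8c had 0 counts in all 6 libraries, where a count of 0 allows up to 0.114 to 0.146 CPM in a library, counting error only.

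Cox7a1 was highest in the tumours with the most skeletal muscle RNA. It stood at 0.36, 0.98 and 0.24 CPM in ND 1, ND 2 and ND 3 and at 1.255, 0.34 and 0.39 CPM in HCD 1, HCD 2 and HCD 3, and it did not pass the filter on counts. The 12 skeletal muscle genes, with Myh4 and Acta1 the most abundant in ND 2 and HCD 1, summed to 11.8, 1707 and 30.5 CPM in ND and to 1834, 206 and 14.8 CPM in HCD, so the muscle level does not follow the diet. Cox6a2, a muscle isoform left out of the members, is itself in this muscle list. It gave 0.09, 3.82 and 0.44 CPM in ND and 8.20, 2.03 and 0.24 CPM in HCD. With ND 2 and HCD 1 both left out, a choice made after seeing the data, the median difference of the members was 0.12 and 68 members were positive. The part of muscle RNA in the members' levels was not tested.

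**Figure D3:**
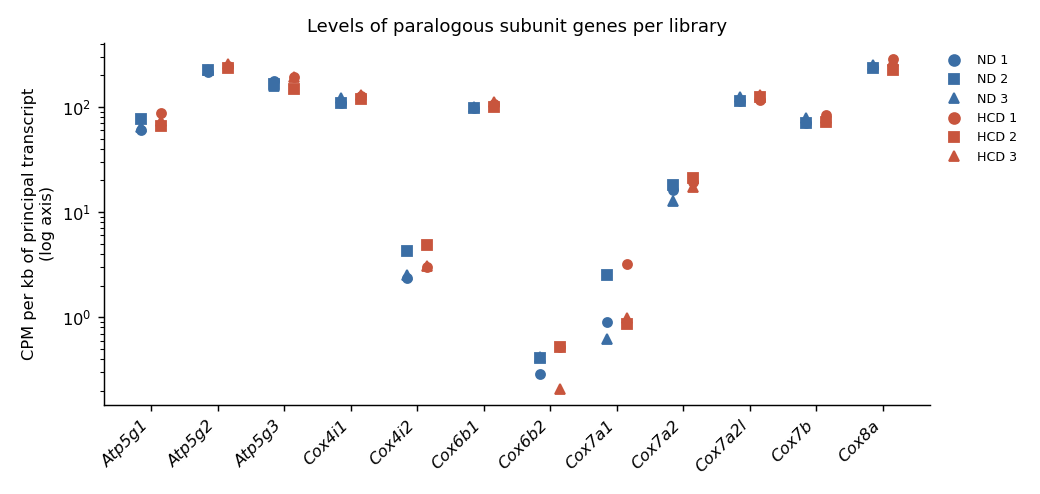
Level of paralogous subunit genes in each tumour, as CPM per kb of principal transcript on a log axis, with ND in blue and HCD in red. The Cox4i2, Cox6b2 and Cox7a1 points lie far under those of Cox4i1, Cox6b1 and Cox7a2l, and Cox7a1 is highest in ND 2 and HCD 1.

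Complex V, the ATP synthase, had 14 of 15 positive differences with a median of 0.13, and the catalytic F1 genes (0.13, 5 of 5 positive) matched the Fo and stalk genes (0.12, 9 of 10 positive). Atp5b gave 920, 970 and 931 CPM in ND and 1099, 932 and 1066 CPM in HCD, and Atp5a1 gave 947, 926 and 874 against 967, 859 and 1015 CPM. Both were highest in an HCD tumour, and in both HCD 2 lay among or below the ND tumours, with log2 fold changes of 0.13 ± 0.08 and 0.05 ± 0.08. Atp5c1, the central shaft, was free of overlap (145, 146 and 144 against 161, 149 and 164 CPM), at 0.12 ± 0.06. Atp5e, the epsilon subunit, had the most positive difference (0.23 ± 0.13) and Atp5j, a subunit of the outer stalk, the most negative (-0.06 ± 0.09), with both diets overlapping.

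The c ring of the ATP synthase is encoded by 3 genes that give the same mature protein from different precursors. Atp5g2 held 49.0% ± 2.02 of their summed level per kb, Atp5g3 held 36.0% ± 1.93 and Atp5g1 held 14.9% ± 1.38. These shares did not differ beyond their spread between diets, at 48.7% ± 1.30 in ND and 49.4% ± 2.85 in HCD for Atp5g2. Atp5g2 was free of overlap (95.6, 98.8 and 98.9 CPM in ND against 108, 102 and 114 CPM in HCD, log2 fold change 0.14 ± 0.06), whereas Atp5g1 (0.18 ± 0.14) and Atp5g3 (0.08 ± 0.11) overlapped. All 50-base stretches of the Atp5g2 transcript and 66.0% of those of Atp5g1 also occur in other genes, mainly pseudogene copies, so these 2 levels are uncertain. Atp5s, the coupling factor B gene, gave 2.91, 3.67 and 4.18 CPM against 4.34, 2.95 and 3.46 CPM, with a difference of 0.00 ± 0.25. Atp5sl, which the annotation now names Dmac2, a complex I assembly gene, gave 10.3, 13.7 and 11.95 CPM against 12.4, 9.43 and 10.5 CPM, a difference of -0.15 ± 0.16.

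Many members share sequence or exon positions with other genes. At least 25% of the 50-base stretches occur elsewhere in 12 members, and 28 members share an exon position with another gene, while 46 share no stretch. The 30 tested members that share neither had a median difference of 0.11, with 29 positive and 6 free of overlap between diets, and the other 48 had a median of 0.13, with 45 positive. The effect of shared reads on these values was not tested.

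Members varied together from tumour to tumour. A library's score, the mean over members of its log2 CPM minus the gene's mean, was -0.13, -0.01 and -0.04 in ND 1, ND 2 and ND 3 and 0.13, -0.04 and 0.09 in HCD 1, HCD 2 and HCD 3. HCD 1 held the highest value of 40 of the 78 tested members and HCD 3 of 29, and ND 1 held the lowest of 36 and HCD 2 of 17. The median Pearson correlation of member pairs over the 6 libraries was 0.58, highest in complex V (0.71) and lowest in complex IV (0.43), against -0.002 for pairs of all tested genes. Within diets, after the diet means were removed, the correlation of member pairs was 0.51. Pairs of cytosolic ribosomal protein genes gave 0.76 over the 6 libraries and 0.69 within diets. Pairs of mitochondrially encoded genes gave 0.45 and 0.46. Varying together was thus not peculiar to the members. The points of each pair share their libraries and so their depth and scaling.

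The mitochondrially encoded subunits did not follow the nuclear ones. Of the 13 genes in mitochondrial DNA, 3 had positive and 10 negative differences, with a median of -0.05, and none had an unadjusted p under 0.05. The most abundant, mt-Co1, the catalytic subunit of complex IV, gave 15921, 14500 and 14553 CPM in ND and 14302, 13722 and 16069 CPM in HCD. Their library scores were 0.11, 0.03 and -0.07 in ND and 0.05, -0.15 and 0.03 in HCD, so that ND 1, lowest for the nuclear genes, was highest here. The median correlation of a nuclear with a mitochondrial gene was 0.08. Summed mitochondrial over summed nuclear CPM was 5.85, 5.23 and 5.13 in ND (mean 5.40 ± 0.39, SD, n = 3) and 4.77, 4.82 and 5.03 in HCD (4.87 ± 0.14), with every HCD tumour below every ND tumour. This ratio was formed after values had been seen and is given without a test. The order was not peculiar to the members. The mitochondrial sum over that of the proteasome, tricarboxylic acid cycle or import and outer membrane genes also had every HCD tumour below every ND tumour. Over cytosolic ribosomal protein genes and over complex I or complex IV assembly factors the diets overlapped.

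**Figure D4:**
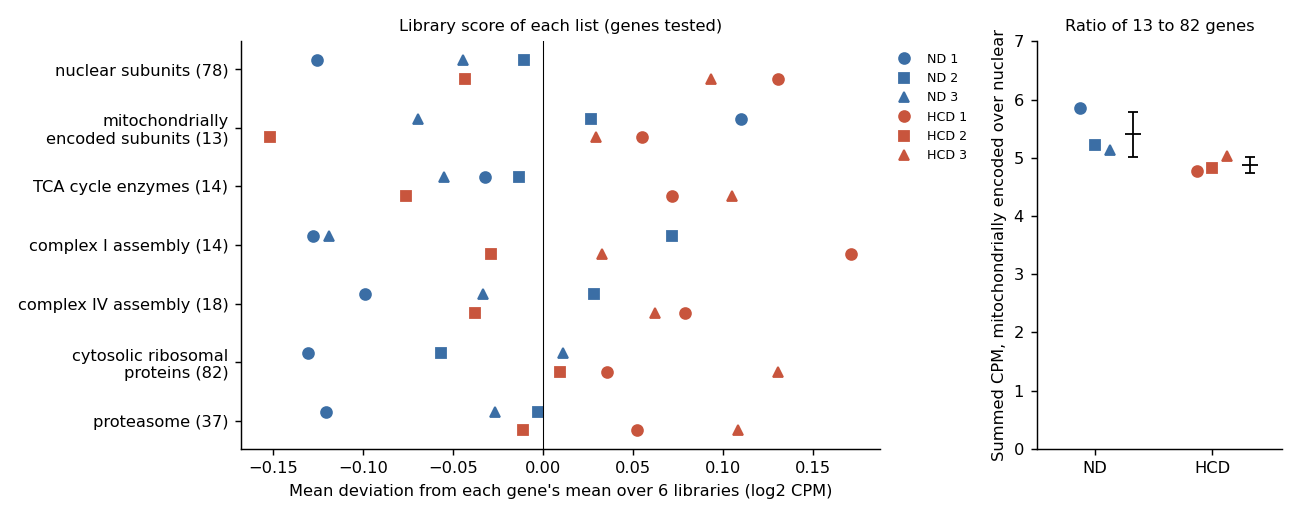
Left, mean deviation of each gene list in each tumour, in log2 CPM, with the number of tested genes in brackets, ND in blue and HCD in red. Right, summed CPM of the 13 mitochondrially encoded genes over that of the 82 nuclear members, with mean and SD; the nuclear score is highest in HCD 1 (0.13) and the 3 HCD ratios (4.77 to 5.03) lie under the 3 ND ratios (5.13 to 5.85).

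Other large sets of genes shared the small shift. The 82 tested genes of the cytosolic ribosome, which have no part in respiration, had a median of 0.11 with 82 positive. Of these, 13 (15.9%) were free of overlap. The 37 tested proteasome genes had a median of 0.09 with 34 positive and 7 (18.9%) free of overlap. The members' share was 19.2%, and that of all tested genes with every HCD tumour above every ND tumour was 4.75%. Library scores of the ribosome and proteasome genes differed in order from those of the members, with HCD 3 highest (0.13 and 0.11) and HCD 1 next (0.04 and 0.05). Neither a positive median nor a raised share free of overlap was thus peculiar to respiratory chain genes.

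No gene that builds or regulates the chain was called, and the medians of these lists differed. Complex I assembly factors had 12 of 14 positive with a median of 0.12, led in level by Ndufaf4 (36.7, 44.9 and 42.8 against 50.4, 44.8 and 44.5 CPM). Complex IV assembly factors had 15 of 18 positive with a median of 0.04, and Coa5, the most abundant, was level (133, 139 and 137 against 136, 142 and 145 CPM). Complex III assembly factors had 3 of 6 positive, and Ttc19, needed for the turnover of the Rieske protein, was lower in every HCD tumour (23.7, 21.4 and 24.4 against 20.4, 17.2 and 19.7 CPM, log2 fold change -0.28 ± 0.10). The 3 tested assembly factors of complex II and the 3 of complex V had medians of 0.22 and 0.09. The complex II median rests on genes of low level. It was that of Sdhaf3 (0.22 ± 0.28), at a mean of 2.73 CPM, and Sdhaf4, lower still in level, gave 0.23 ± 0.21. Sdhaf2, at a mean of 54.8 CPM, gave -0.04 ± 0.08, and the summed CPM of the complex II list had a ratio of HCD over ND of 0.992.

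Enzymes of the tricarboxylic acid cycle had 13 of 14 positive with a median of 0.07, and citrate synthase (Cs) gave 251, 273 and 273 CPM in ND against 306, 272 and 301 CPM in HCD. The import and outer membrane list had 12 of 13 positive with a median of 0.09. Its member with the smallest p, the ADP/ATP carrier Slc25a5, was free of overlap (192, 207 and 212 against 231, 222 and 239 CPM, log2 fold change 0.18 ± 0.06). Among 7 electron carriers and subunits with other names, 6 were positive with a median of 0.09, and Cycs, which encodes cytochrome c, gave 96.9, 139 and 116 against 133, 122 and 128 CPM.

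The regulators of mitochondrial biogenesis did not shift as a list, with 6 of 13 positive and a median of -0.03. Nrf1 gave 0.09 ± 0.08, Gabpa -0.08 ± 0.08 and Yy1 -0.03 ± 0.08, the factors whose letters were searched in the promoters. Ppargc1a, a coactivator of respiratory genes, was low (2.03 to 4.29 CPM) at -0.38 ± 0.32. Its relative Ppargc1b had the smallest p of the list, at 1.83, 2.80 and 4.66 CPM in ND against 5.36, 7.21 and 4.29 CPM in HCD (0.86 ± 0.38, unadjusted p = 0.0567 in edgeR), with ND 3 above HCD 3.

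HCD 2, the HCD tumour whose member levels lay among those of ND, had the highest summed markers of T cells, macrophages, endothelium and adipocytes, but not of neutrophils. Summed T cell markers (10 genes) were 61.5, 105 and 137 CPM in ND and 140, 205 and 90.3 CPM in HCD. Macrophage markers (10 genes) were 473, 997 and 859 against 940, 1587 and 722 CPM, and endothelial markers (8 genes) 172, 190 and 217 against 208, 388 and 189 CPM. These 3 lists were highest in HCD 2 and lowest in ND 1. Adipocyte markers (8 genes) were 40.2, 39.4 and 39.3 CPM in ND and 47.8, 71.7 and 25.4 CPM in HCD. Of 8 fibroblast genes, 7 were highest in HCD 2, though their sum was highest in ND 1 (4031 CPM, against 3732 CPM in HCD 2). Neutrophil markers (8 genes) were 133, 75.05 and 142 CPM in ND and 64.0, 76.8 and 62.0 CPM in HCD, with HCD 2 close to ND 2 and under the other ND tumours, and the hepatocyte list was lowest in HCD 2 (6734 CPM) and high in ND 1 and HCD 3 (8481 and 8900 CPM). The part of this cell make-up in the members' levels was not tested.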

How the data were processed

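For all 6 samples the authors deposited 1 table that holds raw counts and FPKM for each gene. The submitters' processing notes list mm10, CASAVA 1.8, TopHat2 2.0.9, HTSeq and edgeR without a role or order. How multi-mapping reads and strand were handled, and which annotation was used, is not given in the sources used here. In the 14194 genes with at least 10 counts in every library, the deposited FPKM matched count over library total and a fixed gene length, which varied by at most 0.00899% between libraries.

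Diets and tumour numbers were taken from the labels. The main test was edgeR 4.0.16 (R 4.3.3) with quasi-likelihood in its legacy form, TMM scaling, diet as the only term and Benjamini-Hochberg adjustment over all tested genes (threshold 0.05, prior count 0.125). The package's filter (minimum count 10, minimum total 15) kept 15539 of 34745 genes. CPM were computed from the counts with TMM scaling. The test was checked on simulated data in which 200 genes were changed. Genes were drawn independently there and changed by more than the members' median difference. That check does not bear on shifts as small as those of the members. Principal transcripts, exon overlaps and shared 50-base stretches came from GENCODE M21 (GRCm38). A count of 0 was read as up to 3 counts of the library total.

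The members and lists were chosen with earlier results of these data known. Genes were named by rule. The rule took in each complex the highest FPKM, smallest p and most positive and negative difference, and genes without overlap between diets. It also took paralogs and some other members by name, and in each list the highest level and smallest p. Others, such as Ndufs1, Uqcrh, Uqcrq, Ppargc1a and the 3 transcription factors, were named for their role or after their values were seen. Alternatives were DESeq2 1.42.0 size factors and Wald test, limma-voom (limma 3.58.1), other filters, adjusted deviances, the tumour number as a block, summed FPKM and each library left out. Leaving out ND 2 and HCD 1 together was chosen after seeing the data. The values of 1 member, which stayed in all tests, sums and counts, are not reported here.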

Additional observations from a re-analysis of the deposited data

How the results depend on the processing

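No member was called under any alternative run. Over all tested genes, the count of calls was 0 in the main test, 8 with the DESeq2 Wald test, and 0 to 2 with each library left out in turn, the 2 coming without ND 2. The median difference of the members was 0.12 with other scaling, filters and tools, 0.12 without ND 2 and HCD 1, and 0.09 to 0.17 with each library left out, the highest without HCD 2. Members with a positive difference numbered 67 to 76 across the libraries left out and 68 without ND 2 and HCD 1. Members free of overlap between diets numbered 15 to 48 across the libraries left out, where fewer libraries are compared. They were 28 without ND 2, 23 without ND 3, 48 without HCD 2 and 28 without ND 2 and HCD 1. Among all tested genes, the shares with every HCD tumour above every ND tumour were 11.8%, 8.71%, 11.9% and 17.2% in the same order.

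Tumour numbers did not pair the samples: deviations of same-numbered tumours from their group means correlated at -0.30, 0.14 and 0.08. With the replicate number as a block the median was 0.12 with 73 positive members and 0 calls. Small differences of single genes changed sign. Atp5s, at 0.00, gave -0.000753 without a filter, -0.00406 with the block and -0.14 without ND 2 and HCD 1. With each library left out it ran from -0.161 (-0.13 without ND 1) to 0.128. Over the same fits Atp5a1 ran from -0.00504 (without HCD 3) to 0.120, Cox4i2 from -0.00454 (without HCD 2) to 0.582, Cox6a1 from -0.0832 to 0.0635 (without HCD 2), Ndufb6 from -0.136 to 0.131 (without HCD 2, and 0.01 without ND 3), Sdhc from -0.0269 (without HCD 1, and -0.01 without ND 3) to 0.0715, and Uqcrb from -0.0408 (without HCD 3, and -0.03 without ND 1) to 0.0772. The cause was not tested. Summed FPKM in place of summed CPM moved no complex's ratio of diets beyond the spread between libraries. Depth limits Ndufb2, Atp5k, Cox4i2 and Atp5s, the tested members under 5 CPM, and leaves the untested Cox6b2 and Cox7a1 without a test.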
